A study of Homo sapiens with 6 samples.

Results

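The genes described here are 10 immediate early genes and members of the AP-1 transcription factor: FOS, FOSB, FOSL1, FOSL2, JUN, JUNB, JUND, EGR1, ATF3 and IER2. They were chosen by name, by matching the gene identifiers of the deposited tables to GENCODE release 29, and all 10 were found among 58780 genes. All 10 also passed the filter on low counts that left 19725 genes for testing. The RNA came from HCT116, a human colorectal carcinoma cell line with epithelial features. Cells were treated with auxin for 16 h in 3 libraries and with the solvent DMSO alone in the other 3, and the labels number these as biological replicates 1 to 3 in each group. Auxin is a plant hormone used in animal cells to make a degron-tagged protein disappear. The labels name neither the protein that auxin acts on nor the tagged clone, and they give no auxin control in cells without a tag, so an effect of auxin itself and an effect of losing the protein cannot be told apart. The title of the series is about perispeckle networks, nuclear speckles being nuclear bodies rich in splicing factors.

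AP-1 is a dimer of basic leucine zipper proteins. A JUN protein pairs with another JUN protein, a FOS protein or an ATF protein, and FOS proteins bind DNA only with a partner. Many of the FOS, JUN, EGR and IER genes, though not all, are immediate early genes. Growth factors and stress switch on the transcription of immediate early genes within minutes, without new protein synthesis, and their RNAs are short-lived. The signal runs through MAP kinases and ready-made factors such as SRF and its ELK partners. This course is not claimed for every gene described here, FOSL1, FOSL2 and JUND among them, and it was not tested. In carcinoma lines with an active RAS pathway, FOSL1 is known as a strongly expressed FOS family member. JUN, JUNB and JUND are classic genes without introns, and IER2 is often listed with them.

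Depth was high. Expected counts summed to between 234037969 and 625895062 per library, and replicate 1 was the deepest in both groups. Replicate 1 also stood apart from replicates 2 and 3: in the DMSO group its correlation of log2 CPM with the others was 0.9959 and 0.9961 across genes, against 0.999 between replicates 2 and 3. Levels are given as TPM, the deposited abundance per transcript length, when genes are compared with each other. CPM, the counts after TMM scaling of the libraries, is used when a gene is compared between groups, because the test was made on counts. Of 11 colorectal epithelial markers, 6 had at least 1 TPM in every library, EPCAM and keratins 8, 18 and 19 among them. VIL1, CDX1, LGALS4 and CEACAM5 were under 0.1 TPM in every library. The 11 markers summed to 1730 to 2380 TPM in DMSO and 2210 to 2650 TPM after auxin. All 7 of them that were tested were called higher after auxin, beside 25.4% of all tested genes. Their median log2 fold change was 0.45, against 0.02 over all tested genes. With offsets corrected for GC content, 5 of them were called higher. The part of this shift in the changes of the 10 genes was not tested. Of 10 markers of fibroblasts, blood cells and endothelium, 7 were under 0.1 TPM in every library, CD3E and PTPRC were listed at 0 in all 6, and the sums were 1.42 to 2.93 TPM in DMSO and 0.71 to 1.67 TPM after auxin.

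Promoter sequence was taken from RefSeq on GRCh38.p14 for the 9 genes that had an entry, as the 250 bases before the annotated start, printed as far as they lie outside GENCODE exons, apart from the short stretches of JUN and FOS. These sequences are shown because they carry the elements through which immediate early genes are usually described. Capitals mark the motifs that were searched on both strands. The EGR1 window holds a pair of matches to the CArG box, the element bound by SRF, at chr5:138465374-138465383 and chr5:138465396-138465405. The JUND window holds TGACGTCA, the cyclic AMP response element to which ATF and CREB proteins bind. The FOSB and JUNB windows hold TATAAA, a core promoter element.
EGR1 (chr5:138465229-138465478, plus strand): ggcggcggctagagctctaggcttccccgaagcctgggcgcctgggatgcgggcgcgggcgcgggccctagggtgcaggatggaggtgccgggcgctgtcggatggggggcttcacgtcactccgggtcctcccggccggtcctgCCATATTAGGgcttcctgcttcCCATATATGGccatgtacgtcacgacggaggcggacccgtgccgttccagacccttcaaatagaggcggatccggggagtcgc
JUND (chr19:18281623-18281872, minus strand): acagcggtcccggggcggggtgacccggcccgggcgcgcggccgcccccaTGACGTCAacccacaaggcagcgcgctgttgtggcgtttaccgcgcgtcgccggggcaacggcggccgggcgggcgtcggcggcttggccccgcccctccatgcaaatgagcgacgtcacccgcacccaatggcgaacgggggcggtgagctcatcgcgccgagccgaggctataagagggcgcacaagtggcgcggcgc
JUNB (chr19:12791236-12791485, plus strand): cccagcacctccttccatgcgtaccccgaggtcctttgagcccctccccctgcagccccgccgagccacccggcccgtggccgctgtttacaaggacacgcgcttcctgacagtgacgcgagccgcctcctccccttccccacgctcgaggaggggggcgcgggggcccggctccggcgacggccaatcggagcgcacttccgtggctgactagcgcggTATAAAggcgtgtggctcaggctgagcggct
FOSB (chr19:45467746-45467994, plus strand): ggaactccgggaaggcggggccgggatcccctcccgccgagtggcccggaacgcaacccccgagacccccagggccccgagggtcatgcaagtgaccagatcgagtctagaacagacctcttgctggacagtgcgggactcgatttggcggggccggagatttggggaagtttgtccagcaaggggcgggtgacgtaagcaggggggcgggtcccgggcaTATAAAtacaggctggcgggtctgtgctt

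In JUN and in the first of the ATF3 windows the match was TGACATCA, the variant of the AP-1 element known from the JUN promoter, and in FOS it was TATAAA. Each is shown with its surroundings in a stretch of 30 bases, to compare the shared letters. The JUN and FOS stretches lie upstream of the RefSeq starts but within exons of GENCODE transcripts that start further upstream.
JUN (chr1:58784096-58784125, minus strand): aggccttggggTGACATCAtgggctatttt
ATF3 (chr1:212565273-212565302, plus strand): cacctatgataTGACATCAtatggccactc
FOS (chr14:75278783-75278812, plus strand): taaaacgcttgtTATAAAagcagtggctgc

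The motifs differed in how often they occur in promoters. Among 35116 RefSeq windows of the same length, a CArG box was found in 1.16%, TGACGTCA in 1.65%, TGACATCA in 2.37% and TATAAA in 10.7%. The consensus AP-1 element TGANTCA was found in 6.57% of windows and the EGR element GCGTGGGCG in 0.72%, and in no window of the 9 genes. FOSL2 and IER2 had none of the 6 motifs in this window. The other ATF3 window, at its downstream start, had TATAAA. JUN and ATF3 share TGACATCA, and both genes rose after auxin. The GENCODE start nearest to the RefSeq start of that ATF3 window is that of ATF3-206, 73 bases away. ATF3-206 had 0.577% of the gene's TPM in DMSO and 0.503% after auxin, and was not called. Among the genes with TATAAA in the printed sequence, FOSB rose, FOS fell and JUNB did not pass the test. A link between these motifs and the changes was not tested.

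After auxin, 5 of the 10 genes rose, 3 fell and 2 did not pass the test. FOSL1, JUN, ATF3, IER2 and FOSB rose, FOSL2, EGR1 and FOS fell, and JUNB and JUND did not pass. In this fit only FOSL1 changed by at least 2-fold, and the fold differences of the other 9 genes, passing or not, lay between 1.14 and 1.54. The threshold was an adjusted p of 0.05 (edgeR's quasi-likelihood test, Benjamini-Hochberg), at which 52.3% of all tested genes were called, 25.4% higher and 26.9% lower, so that 8 calls among 10 genes stood against a high background. At least 2-fold changes made up 6.55% of tested genes upward and 13.3% downward. For 8 of the 10 genes, 5 higher and 3 lower, no auxin library fell within the CPM range of DMSO. The same held for 60.3% of all tested genes, 30% higher and 30.4% lower. The median log2 fold change of the 10 genes was 0.08, against 0.02 over all tested genes.

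Libraries of the same replicate number deviated from their group means together and were treated as pairs, although replicates 2 and 3 were not told apart by number: the correlation was 0.607 for DMSO replicate 3 with auxin replicate 3 and also with auxin replicate 2. With the replicate number as a block, 5 of the genes were higher and 5 lower, JUNB and JUND joining the lower genes. In that fit 69.9% of all tested genes were called, 35.5% higher and 34.4% lower. Each of the 10 genes changed in the same direction, on the CPM scale, in all 3 pairs of libraries with the same number. The share of all tested genes that did so was not counted, so this cannot be called particular to the 10 genes.

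**Figure D1:**
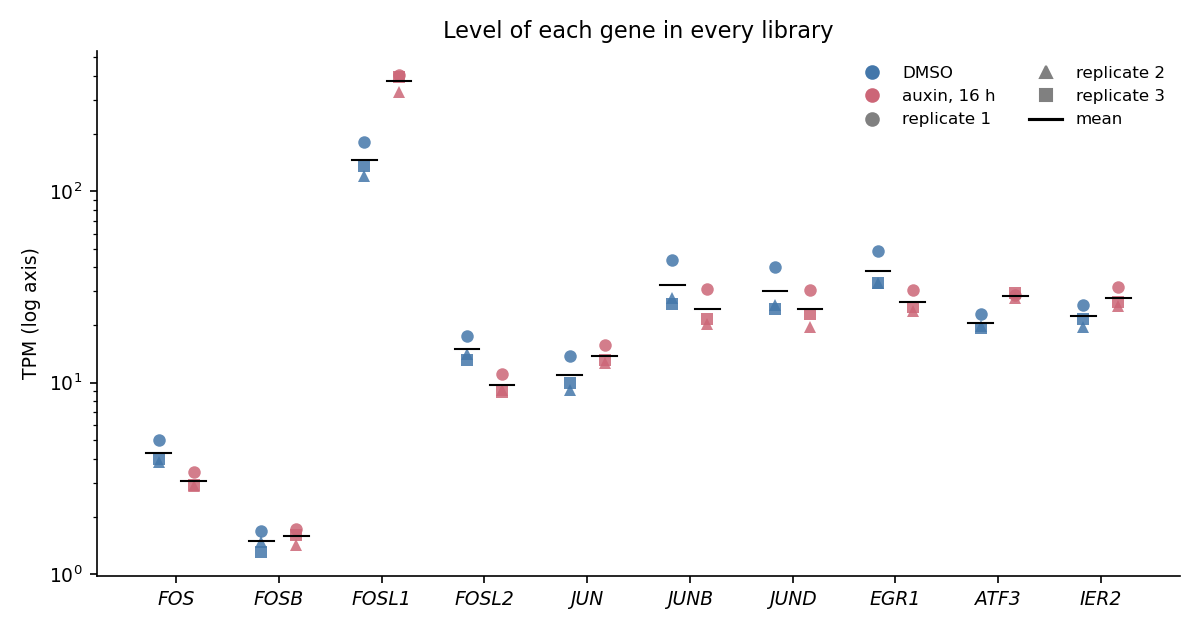
TPM of the 10 genes in each of the 6 libraries on a log axis, with DMSO in blue, auxin in red, replicates by symbol and the group mean as a bar. FOSL1 lies at 119.8 TPM or more in every library and rises after auxin, and replicate 1 is the highest DMSO library for every gene.

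FOSL1, which encodes the FOS-related protein FRA-1 (chromosome 11, 65892049 to 65900573, minus strand), had 184.5, 177.9 and 194.5 CPM in DMSO replicates 1 to 3. After auxin it had 508.1, 523.1 and 593.3 CPM. All 3 auxin libraries were far above all 3 DMSO libraries. The fold change was 2.92 (log2 fold change 1.54, SE 0.081, adjusted p 1.06e-05), higher than in 97.4% of tested genes. In TPM the rise was from 179.8, 119.8 and 135.11 to 406.19, 329.43 and 396.99, again without overlap. FOSL1 kept its call under all 17 alternative settings tried, with log2 fold changes between 1.39 and 2.13.

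FOSL2, which encodes FRA-2 (chromosome 2, 28392448 to 28417312, plus strand), went the other way. It had 86.75, 101.3 and 90.82 CPM in DMSO and 67.57, 70.64 and 65.66 CPM after auxin, and the groups did not overlap. It was 1.37-fold lower after auxin (log2 fold change -0.45, SE 0.071, adjusted p 0.00153). Of the 17 alternatives, limma-trend on log2(TPM + 1) lost the call, at an adjusted p of 0.052.

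FOS, the founding member (chromosome 14, 75278774 to 75282230, plus strand), was near the lower end of the group in level. It had 7.31, 8.197 and 8.098 CPM in DMSO and 5.878, 6.544 and 6.528 CPM after auxin, so every auxin library was below every DMSO library. It fell 1.25-fold (log2 fold change -0.32, SE 0.094, adjusted p 0.0248). This call was weak: leaving out DMSO replicate 2 or 3 or auxin replicate 1, 2 or 3 ended it, with adjusted p-values of 0.0546 to 0.0739, while the log2 fold change stayed between -0.37 and -0.26. It also ended with offsets corrected for GC content (-0.28, adjusted p 0.0549), and with the replicate block its adjusted p was 0.001.

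FOSB, a FOS protein with a shorter splice form known as delta FosB (chromosome 19, 45467995 to 45475179, plus strand), was the lowest of the 10 genes in TPM. Its CPM was 4.143, 5.107 and 4.986 in DMSO and 5.683, 6.067 and 6.406 after auxin. The groups did not overlap in CPM, and the log2 fold change was 0.35 (SE 0.11, adjusted p 0.0362). In TPM the groups overlapped, with 1.31 to 1.68 in DMSO and 1.43 to 1.72 after auxin, and limma-trend on log2(TPM + 0.1) gave 0.09 (adjusted p 0.842). Leaving out any library other than auxin replicate 1, that is DMSO replicate 1, 2 or 3 or auxin replicate 2 or 3, ended the call, with adjusted p-values of 0.0574 to 0.119.

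Within the FOS family the balance moved toward FOSL1. Its part of the family's summed TPM was 87.4% ± 1.2 under DMSO and 96.3% ± 0.337 under auxin (SD, n = 3 each). FOSL2 contributed 9.11% ± 0.927 in DMSO and 2.49% ± 0.261 after auxin, and FOS 2.6% ± 0.154 and 0.787% ± 0.0638. FOSB had 0.913% ± 0.13 and 0.405% ± 0.0138, although the gene was called higher. Shares are parts of the same sum, so a larger share of FOSL1 lowers the others. The summed level was 166 ± 34 TPM in DMSO and 392 ± 42.9 TPM after auxin. The ranges of each of these quantities did not overlap between the groups.

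JUN, the main transactivating partner of FOS proteins (chromosome 1, 58780788 to 58784327, minus strand), had 36.53, 35.7 and 37.74 CPM in DMSO. After auxin it had 51.07, 52.95 and 52.06 CPM. The libraries of a group lay close together and the groups were well apart. JUN rose 1.42-fold (log2 fold change 0.51, SE 0.051, adjusted p 0.000184). In TPM the groups overlapped through DMSO replicate 1, at 13.72 TPM, which exceeded auxin replicates 2 and 3 at 12.61 and 13.17 TPM, and limma-trend on log2(TPM + 1) did not call it (0.32, adjusted p 0.282).

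JUNB, often described as a weaker activator that can restrain JUN (chromosome 19, 12791496 to 12793315, plus strand), had 56.55, 52.75 and 47.17 CPM in DMSO and 48.8, 41.2 and 41.15 CPM after auxin. Auxin replicate 1 was above DMSO replicate 3, so the groups overlapped. The log2 fold change was -0.25 (SE 0.096, adjusted p 0.0601) and missed the threshold. With the replicate block it was -0.26 and called lower (adjusted p 0.000403). With offsets corrected for GC content the sign turned, to 0.62 (adjusted p 0.000372).

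JUND, the JUN protein usually found in resting cells (chromosome 19, 18279760 to 18281622, minus strand), had 33.94, 30.8 and 27.68 CPM in DMSO and 30.93, 24.52 and 25.8 CPM after auxin, with overlapping groups. The log2 fold change was -0.19 (SE 0.11, adjusted p 0.208), and -0.19 with the replicate block (adjusted p 0.0089). Corrected for GC content it was 0.91 (adjusted p 0.000186).

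In the JUN family the share of JUN was 15.1% ± 1.35 of summed TPM under DMSO and 22.4% ± 1.9 under auxin (SD, n = 3 each). JUNB had 44.1% ± 1.01 and 38.7% ± 1.4, and JUND 40.8% ± 0.357 and 38.8% ± 1.45. The shares of JUN, JUNB and JUND did not overlap between the groups. They are parts of the same sum, so a larger share of JUN lowers the others and these are not separate results. The summed JUN family level was 73.5 ± 21 TPM in DMSO and 62.3 ± 13 TPM after auxin, with overlapping ranges. In TPM, the sum was lower after auxin within each pair. It was 97.7 and 77.0 TPM in replicate 1, 62.6 and 52.3 in replicate 2 and 60.2 and 57.6 in replicate 3. TPM has no TMM scaling, and on the TPM scales the median log2 fold change of all tested genes shifted by -0.14 and -0.15. Whether the sum fell apart from this difference of scale was not tested.

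**Figure D2:**
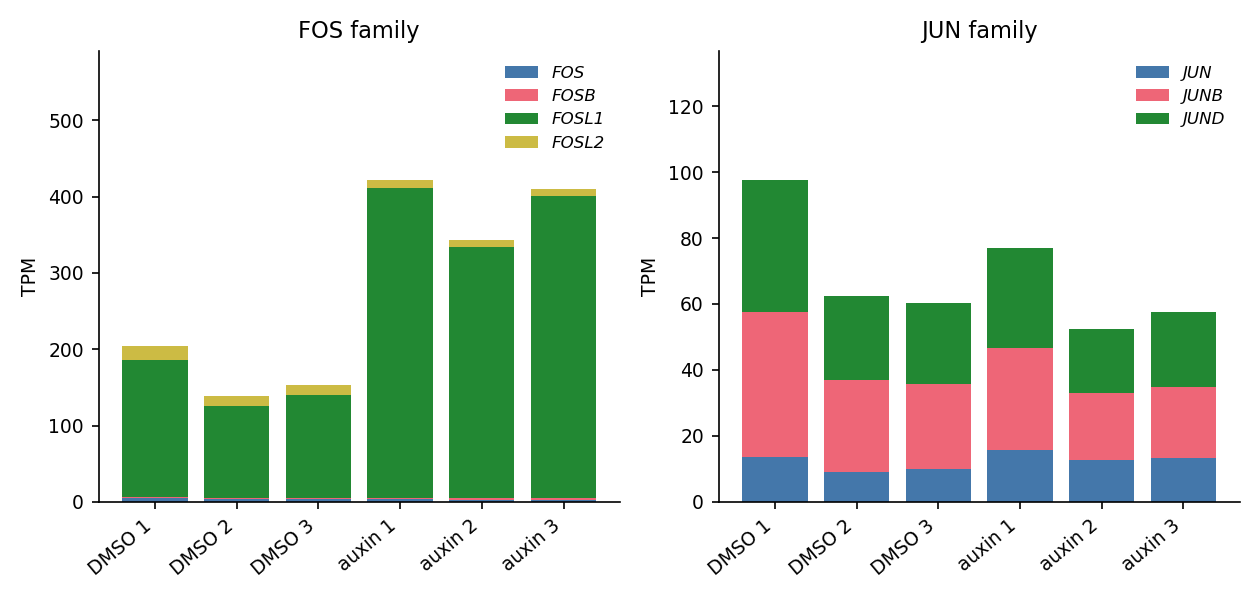
Stacked TPM of the FOS family (left) and the JUN family (right) in each library, with each gene's TPM as a segment of the bar. The FOS family sum rises from 139 to 204 TPM in DMSO to 343 to 422 TPM after auxin, nearly all of it FOSL1, while the JUN family sum overlaps between the groups.

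EGR1, a zinc finger factor and a standard readout of MAP kinase signalling (chromosome 5, 138465490 to 138469315, plus strand), had 114.7, 114 and 110.5 CPM in DMSO. After auxin it had 87.41, 87.76 and 85.97 CPM. Replicates were closer together than in almost any other gene: the within-group SD of log2 CPM was 0.0231, lower than in all but 2.07% of tested genes. EGR1 was 1.3-fold lower after auxin (log2 fold change -0.38, SE 0.049, adjusted p 0.00059). Corrected for GC content the value was -0.16 (adjusted p 0.0606), which missed the threshold. Limma-trend missed it too, on log2(TPM + 0.1) (-0.53, adjusted p 0.0926) and on log2(TPM + 1) (-0.51, adjusted p 0.1).

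ATF3, a stress-induced partner of JUN proteins (chromosome 1, 212565334 to 212620777, plus strand), had 24.87, 25.93 and 24.43 CPM in DMSO and 37.18, 40.04 and 38.73 CPM after auxin. The groups did not overlap on either scale, with 19.2 to 22.79 TPM in DMSO and 27.64 to 29.25 TPM after auxin. ATF3 rose 1.54-fold (log2 fold change 0.62, SE 0.059, adjusted p 0.000128). With FOSL1, it was the other member called in the same direction under all 17 alternatives, between 0.45 and 0.74.

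IER2, an immediate early nuclear protein (chromosome 19, 13150415 to 13154908, plus strand), had 38.96, 43.6 and 46.46 CPM in DMSO and 58.86, 59.97 and 59.39 CPM after auxin. The auxin libraries were nearly equal and all above the DMSO libraries. IER2 rose 1.38-fold (log2 fold change 0.47, SE 0.072, adjusted p 0.00142). In TPM the ranges overlapped, at 19.44 to 25.53 in DMSO and 25.06 to 31.55 after auxin. Limma-trend did not call IER2 on log2(TPM + 0.1) (0.32, adjusted p 0.213) or on log2(TPM + 1) (0.31, adjusted p 0.211). With offsets corrected for GC content the log2 fold change was 1.16.

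**Figure D3:**
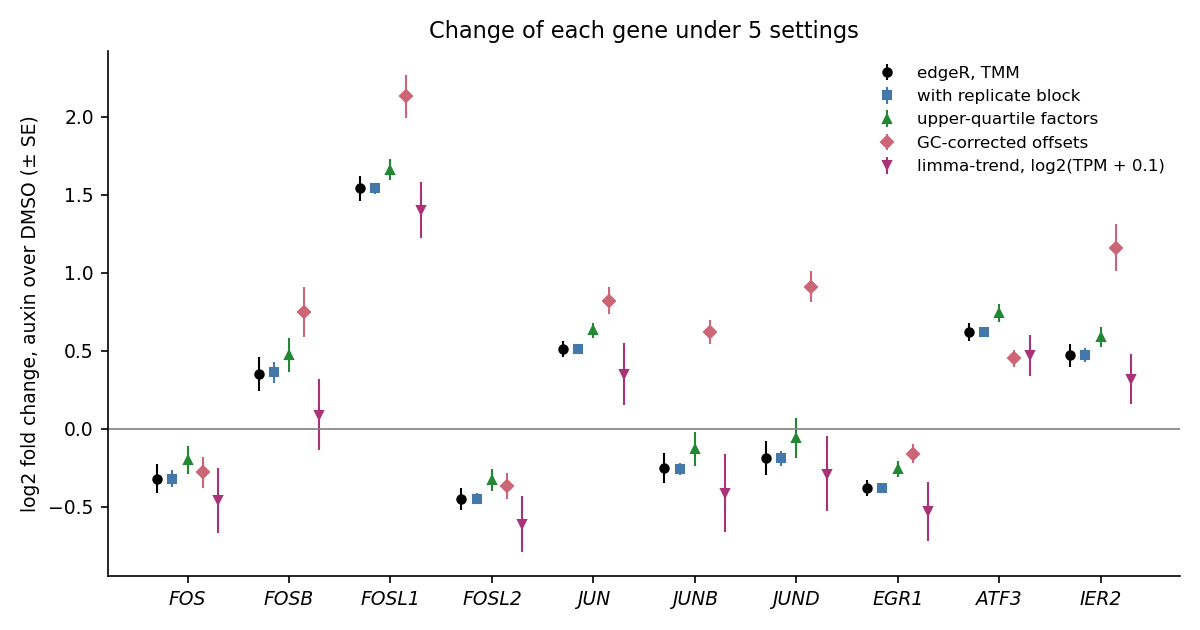
Log2 fold change of each gene, auxin over DMSO, with its SE, under 5 settings: edgeR with TMM, with the replicate block, with upper-quartile factors, with GC-corrected offsets, and limma-trend on log2(TPM + 0.1). JUNB and JUND change sign with GC-corrected offsets, to 0.62 and 0.91, and the other 8 genes keep theirs in all 5.

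The order of the levels changed. In DMSO, mean TPM ran from FOSL1 (144.9) through EGR1 (38.49), JUNB (32.49), JUND (30.03), IER2 (22.18), ATF3 (20.59), FOSL2 (14.95), JUN (10.95) and FOS (4.28) to FOSB (1.49). EGR1 overlapped JUNB in range, JUNB overlapped JUND, JUND overlapped IER2, IER2 overlapped ATF3 and FOSL2 overlapped JUN, while the other neighbours were apart. After auxin the order was FOSL1 (377.5), ATF3 (28.49), IER2 (27.64), EGR1 (26.34), JUND (24.28), JUNB (24.22), JUN (13.82), FOSL2 (9.717), FOS (3.073) and FOSB (1.583). The 5 genes from ATF3 to JUNB formed a run in which each overlapped the next, and JUN now stood above FOSL2 without overlap, where in DMSO FOSL2 had the higher mean with an overlapping range. Replicates of the 10 genes varied about as much as those of other genes, with a median within-group SD of log2 CPM of 0.0897 against 0.0963 over all tested genes.

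GC content moved with the change across the transcriptome. Tested genes were ordered by the GC content of their longest transcript, known for 19708 of 19725, and split into 10 equal classes. The median log2 fold change was between 0.08 and 0.19 in GC classes 1 to 6 and was lower in the richest classes, at -0.51 in class 9 and -0.79 in class 10. JUND at 69.7% GC, JUNB at 64.9% and IER2 at 61.7% lay in class 10, FOSL1 at 60.0% and FOSB at 57.7% in class 9. JUNB and JUND stood at the 67.7th and 70.6th percentile of their class, IER2 at the 90.4th and FOSL1 at the 98.8th. FOS, FOSL2 and EGR1, with GC contents of 52.6%, 53.3% and 55.4%, stood at the 32.2nd, 27.7th and 39.4th percentile of theirs. ATF3, at 46.7%, was in class 5, at the 79.8th percentile.

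Offsets corrected for GC content set each gene against genes of like GC content. With them, 7 of the 10 genes were called higher (FOSB, FOSL1, JUN, JUNB, JUND, ATF3 and IER2), FOSL2 was called lower, and FOS and EGR1 were not called, against 54.1% of all tested genes called, 27.5% higher and 26.6% lower. With the replicate block in addition, FOS and EGR1 were called lower again, at adjusted p-values of 0.00138 and 0.00206. The correction also removes any true change that follows GC content, and the part of GC content in these results was not tested.

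**Figure D4:**
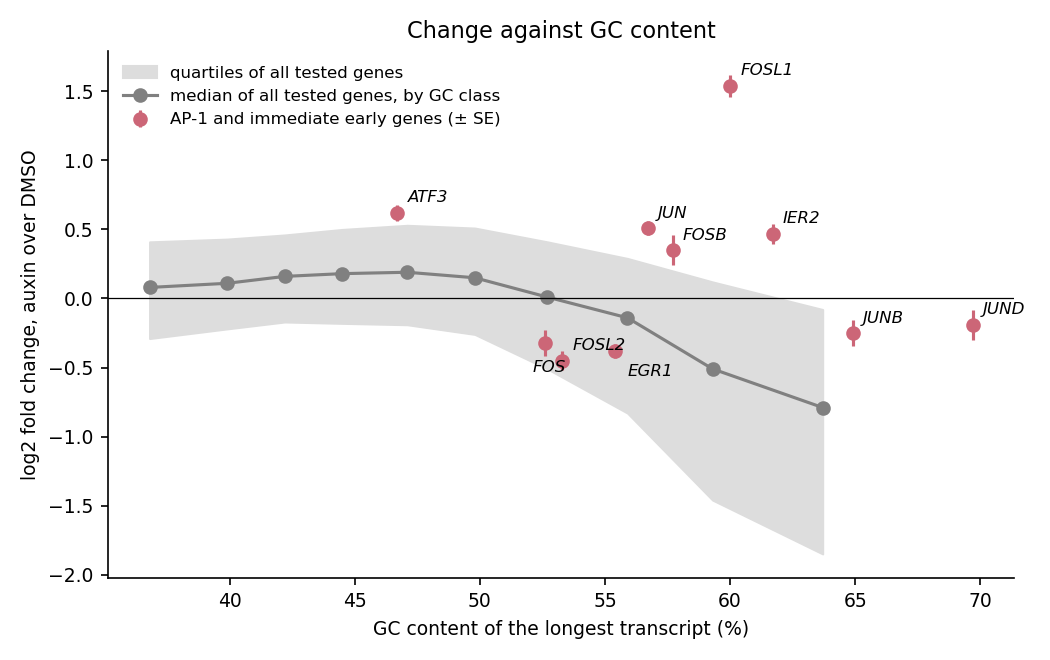
Log2 fold change against the GC content of the longest transcript, with the median and quartiles of all tested genes by GC class in grey and the 10 genes in red with their SE. The median falls to -0.79 in class 10, while JUNB, JUND and IER2, in that class, lie at -0.25, -0.19 and 0.47.

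The genes grouped as intronless were compared with the spliced ones. The main transcripts of JUN, JUNB and JUND, taken as those with the most TPM, have 1 exon. The label does not hold for IER2 at the RNA level: its main transcript, IER2-201, has 2 exons, although its coding sequence lies within 1 of them. Of the 4 genes JUN, JUNB, JUND and IER2, JUN and IER2 rose and none was called lower in the fit without the replicate block. JUNB and JUND were called lower in the fit with it. Of the 6 spliced genes, FOSB, FOSL1 and ATF3 rose and FOS, FOSL2 and EGR1 fell in both fits. Over all tested genes, 25.4% were called higher and 26.9% lower, and 35.5% and 34.4% with the block. Median log2 fold changes were 0.14 and 0.02, and the ranges overlapped, from -0.25 to 0.51 and from -0.45 to 1.54. With IER2 counted as spliced the medians were -0.19 for 3 genes and 0.35 for 7, so the order of the medians turned with the place of IER2.

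Over all tested protein-coding genes, 308 had 1 exon in every transcript and 13846 had introns. The genes with 1 exon had a median log2 fold change of 0.15, with 26.3% called higher and 17.2% lower. Those with introns had a median of -0.02, with 27.8% higher and 33.8% lower. The median GC content of the classes was 53.7% and 48.8%, and that of JUN, JUNB, JUND and IER2 was 63.3%. With GC-corrected offsets the median was 0.87 for these 4 genes and 0.14 for the 6 spliced ones, beside 0.32 and 0.0 for the genome-wide classes. JUND and IER2 each have a transcript with 2 exons, so they belong to the genome-wide class with introns. For the 430 tested protein-coding genes whose main transcript has 1 exon, the median was 0.15, and 0.28 with GC-corrected offsets. With IER2 counted as spliced, the corrected medians were 0.82 for 3 genes and 0.45 for 7, and their order did not turn. The difference between the classes among the 10 genes was not tested.

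The transcript tables list 51 transcripts of the 10 genes, of which 31 were tested. In edgeR's test per transcript, 8 were higher and 2 lower, where 19.7% of all tested transcripts were called, 8.43% higher and 11.2% lower. With the replicate block the numbers were 10 and 5, where 12.8% and 14.1% of all tested transcripts were called. All 3 FOSL1 transcripts with at least 10% of the gene's TPM rose, FOSL1-202 by 1.53, FOSL1-201 by 1.52 and FOSL1-203 by 1.82 on the log2 scale (adjusted p 0.00277, 0.000596 and 0.000274). Their shares were 51.5% ± 4.29, 34.7% ± 3.74 and 12.9% ± 1.37 under DMSO and 50% ± 5.61, 33.9% ± 4.72 and 15.3% ± 0.911 under auxin (SD, n = 3 each), so the gene's increase was spread over its transcripts.

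FOSB-201 rose by 0.6 (adjusted p 0.036) and had 53.9% ± 11.2 of the gene's TPM in DMSO and 67.6% ± 9.35 after auxin. The deposited posterior SD reached 3370% of the count for FOSB-203, 478% for FOSB-211 and 26.2% for FOSB-206, so the split among FOSB transcripts is uncertain. ATF3-202, with 4 exons, rose by 0.64 (adjusted p 0.00346), and its share was 54.0% ± 9.16 and 53.9% ± 6.84. ATF3-210 also had 0.64 (adjusted p 0.303) and passed with the replicate block (0.65, adjusted p 0.0148).

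FOSL2-201 and EGR1-201 were the lower transcripts, at -0.38 and -0.36 (adjusted p 0.0271 and 0.00962). With the replicate block, FOS-201 (-0.3, adjusted p 0.043), FOSL2-202 (-0.56, adjusted p 0.0137) and JUNB-201 (-0.24, adjusted p 0.0267) were lower as well. JUND-202, a 2-exon model of 500 bases, took 46.2% ± 1.74 of the gene's TPM in DMSO and 48.7% ± 3.3 after auxin, but between 12.6% and 16.4% of its counts, since TPM divides by length. JUND-201, with 1 exon, had a log2 fold change of -0.19 (adjusted p 0.325) and JUND-202 of -0.05 (adjusted p 0.838).

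Several of the genes share their locus with others. ERCC1, a DNA repair gene, covers the whole of FOSB, 7185 bases, on the opposite strand, and had 42.1 ± 1.7 CPM under DMSO and 39.3 ± 1.6 under auxin (SD, n = 3 each; log2 fold change -0.1, adjusted p 0.207). HOOK2, a microtubule-linked adaptor gene, covers all 1820 bases of JUNB on the opposite strand and fell from 5.75 ± 0.78 to 2.42 ± 0.92 CPM (log2 fold change -1.24, adjusted p 0.00587). The kit marks strand, but the strand setting of the counting is not given in the sources used here, so reads of FOSB and ERCC1, or of JUNB and HOOK2, may not have been separated.

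Neighbours did not move alike. STX10, a syntaxin gene 32 bases from IER2 on the opposite strand, fell from 18.2 ± 2.8 to 2.38 ± 0.51 CPM (log2 fold change -2.93, adjusted p 2.29e-05), while IER2 rose. FIBP, 3510 bases from FOSL1, fell (-1.01, adjusted p 0.000633), and CCDC85B, 414 bases from FOSL1 on the opposite strand, rose (0.46, adjusted p 0.0306). PRDX2, a peroxiredoxin gene 3505 bases from JUNB, fell (-0.66, adjusted p 5.22e-05). The lincRNA gene LINC01135, 801 bases from JUN, had 6 to 34 counts per library (1.19, adjusted p 0.108). An antisense gene over 1123 bases of IER2, ENSG00000267598.1, had 94 to 389 counts and a log2 fold change of 0.47 (adjusted p 0.0508). The remaining neighbours, a gene within FOSL2, a gene near JUNB and the pseudogenes RPL7P19 near EGR1 and RPL12P42 near IER2, had at most 62 counts in any library and none was called.

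Other immediate early genes were called in both directions. Of 30 tested, 12 were higher and 11 lower, or 40% and 36.7%, where 25.4% and 26.9% of all tested genes were called, and the median log2 fold change was 0.01. CCN2 and CCN1, matricellular proteins, rose by 1.75 and 0.64 (adjusted p 6.36e-06 and 0.000292). MYC, the growth regulator, rose by 1.27, from 167 ± 5.3 to 403 ± 15 CPM (SD, n = 3 each; adjusted p 7.48e-06). NAB2, a corepressor of EGR proteins that EGR1 itself induces, had a log2 fold change of -1.1, and EGR3 of -1.09 (adjusted p 2.9e-05 and 0.000472). With GC-corrected offsets NAB2 had -0.34 and was not called (adjusted p 0.062), while EGR3 kept -1.09. IER5L fell by 0.67 (adjusted p 0.0225), and its value was 0.21 with GC-corrected offsets, under which 13 of these genes were higher and 5 lower.

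Among 27 other basic leucine zipper genes, 13 were higher and 6 lower, with a median of 0.23. That is 48.1% higher and 22.2% lower, beside the 25.4% and 26.9% of all tested genes. CREB5 rose by 1.19, BATF3 by 0.71 and ATF4, a central factor of the stress response, by 0.6. CREB3 had a log2 fold change of -1.4, ATF5 of -1.15 and ATF6B of -0.93, all called lower. With any 1 library left out, the count of higher genes was between 6 and 12. The lowest, 6, came from dropping auxin replicate 2, and the highest, 12, from dropping auxin replicate 1. Dropping replicate 2 or 3 of the DMSO group gave 7 and 8. How many of all tested genes were called in these fits was not counted, so the drop cannot be called particular to this list.

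Of 26 genes of the MAP kinase and SRF route that switches immediate early genes on, 6 were higher and 10 lower, with a median of -0.13. The shares were 23.1% and 38.5%, the former near the 25.4% of all tested genes and the latter beside 26.9%. The largest decreases were in RPS6KA1, the kinase RSK1, at -3.27, from 46.1 ± 3.1 to 4.77 ± 0.52 CPM (adjusted p 1.99e-06), in MAP2K7, which activates JNK, at -2.64, and in ARAF, a RAF kinase, at -2.3. MAP2K3, which activates p38, rose by 0.66, RPS6KA2 by 0.54 and ELK3, an SRF partner, by 0.52. The RPS6KA2 call ended without DMSO replicate 2 or 3 (adjusted p 0.0681 and 0.0679).

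Of 25 tested genes known as targets of AP-1, 8 were higher and 8 lower, with a median of 0.18. Each count is 32.0% of the genes, near the 25.4% and 26.9% of all tested genes. MMP1, a collagenase, rose by 1.94 to 1.65 ± 0.15 CPM. MMP14 had a log2 fold change of -2.44, ITGB4 of -2.32 and AXL of -1.25, all called lower. Without auxin replicate 3 the higher genes numbered 5.

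Proteins that bind AU-rich elements or shorten poly(A) tails act on the RNAs of immediate early genes. Of 19 such genes, 3 were higher and 8 lower, with a median of -0.25, or 15.8% and 42.1% beside 25.4% and 26.9% of all tested genes. With the replicate block 13 were lower, or 68.4% beside 34.4% of all tested genes. KHSRP, a decay-promoting AU-rich element binding protein, had a log2 fold change of -2.39, from 257 ± 14 to 49.0 ± 2.5 CPM (adjusted p 1.99e-06). CNOT3 had -2.19 and CNOT6L -0.88, both called lower. ZFP36L1 rose by 0.45, CNOT7 by 0.35 and BTG2 by 0.25, and the ZFP36L1 call ended without DMSO replicate 2 or 3 (adjusted p 0.0839 and 0.077).

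**Figure D5:**
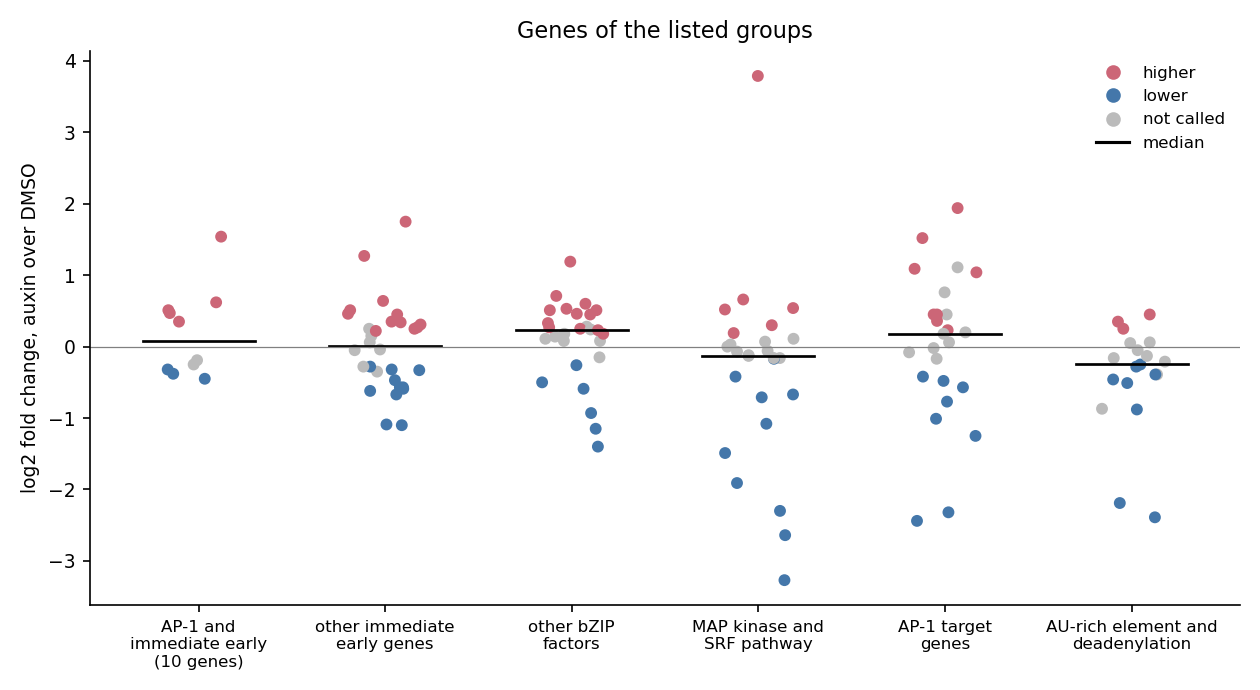
Log2 fold change of the 10 genes and of the genes of 5 related groups, with genes called higher in red, called lower in blue and not called in grey, and the median as a bar. The medians lie between -0.25 and 0.23, and each group holds genes called in both directions. The highest point, in the MAP kinase group, is MAP2K6, named here after its value was seen, whose mean was under 1 CPM.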

How the data were processed

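Total RNA was depleted of ribosomal RNA and made into stranded, paired-end libraries, per the labels' protocols. Per the file headers, the authors deposited for each library an expected count per gene and per transcript, which need not be whole, its posterior standard deviation, the TPM, and the percent of its gene's TPM taken by each transcript. The submitters' processing notes name bcl2fastq 2.20, STAR, DESeq2 and GRCh38, without roles; the strand setting and quantifier version are not given in the sources used here. All 58780 gene and 206761 transcript identifiers were in GENCODE release 29. The 746 rows that name no human gene held at most 0.001113% of a library's counts and were left out.

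Expected counts were rounded and tested with edgeR 4.0.16 in R 4.3.3 (filterByExpr, TMM, glmQLFit and glmQLFTest, auxin against DMSO over 6 libraries, adjusted p under 0.05 over all 19725 genes, or over all transcripts tested). The SE was derived from the F statistic. Alternatives were DESeq2 1.42.0 and limma 3.58.1 on log2(TPM + 1) and log2(TPM + 0.1). Further ones were other scalings and filters, a replicate block, GC-corrected offsets and left-out libraries. The GC-corrected offsets came from a lowess fit on GC content in each library, span 0.3. The fitted quantity was the log of the scaled count less the gene's mean over the libraries. Fold changes on the log2(TPM + pseudocount) scales understate the change of low genes. Same-numbered libraries deviated together from their group means (r 0.861, 0.634 and 0.607 across genes) and were taken as pairs on that ground, since the labels name no shared day or culture. Differently numbered libraries reached 0.607 (DMSO 3 with auxin 2) and 0.398 (DMSO 2 with auxin 3), so the numbers set replicate 1 apart but not replicates 2 and 3. No pair of libraries of a group differed by as little as sampling noise (chi-square per degree of freedom 38.4 or more). On 3 simulated tables with 200 changed genes among 19417, the gene test recovered 33.3% of 1.5-fold and 53.7% of 2-fold changes. Of its calls, 7.03% were false. The simulated tables held a far smaller part of changed genes than the 52.3% called in the data. These rates therefore do not give the recovery of the gene test in the data. On 3 tables with 15000 changed transcripts among 78377, 10.8% of 2-fold and 47.1% of 4-fold changes were recovered.

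The 10 genes, the gene lists and the tests were chosen with earlier results of these data known. Named were all 10 genes, from each list up to 3 called genes per direction with the largest change and a mean of at least 1 CPM, genes overlapping or within 5 kb with at least 10 counts, and transcripts with at least 10% of a gene's TPM. Some genes that this rule names are not reported here. In bulk RNA, fewer expressing cells and less RNA per cell cannot be told apart.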

Additional observations from a re-analysis of the deposited data

How the results depend on the processing

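Of the 10 genes, FOSL1 and ATF3 were called higher under all 17 alternatives. The count of lower genes, 3, was 1 with GC-corrected offsets, 1 with limma-trend on log2(TPM + 0.1), 0 on log2(TPM + 1), 5 with the replicate block, 5 with replicates 2 and 3 only, and 2 to 4 when a library was left out. The count of higher genes, 5, was 2 on both TPM scales and 4 to 5 when a library was left out. For transcripts, the 2 lower became 1 without a filter, 5 with the replicate block, 0 with upper-quartile factors and 0 to 2 with a library left out (0 without DMSO replicate 2, and 1 without DMSO replicate 1 or 3 or auxin replicate 2 or 3), and the 8 higher became 5 to 7, with 5 without DMSO replicate 2. Under GC correction, alone or together with the block, JUNB turned to 0.62, JUND to 0.91 and IER5L to 0.21. Beyond the block, JUNB was also called lower with DESeq2 (adjusted p 0.0422), without a filter (0.0432) and with replicates 2 and 3 only (0.00293). The same held for JUNB without DMSO replicate 3 (adjusted p 0.0323) or auxin replicate 1 (0.0144). JUND was called lower with replicates 2 and 3 only (adjusted p 0.0166) and without auxin replicate 1 (0.0404). Over all alternatives, the other immediate early genes had 2 to 21 higher and 1 to 13 lower (7 lower without auxin replicate 3), the leucine zipper genes 0 to 18 and 3 to 6, the MAP kinase and SRF genes 0 to 9 and 7 to 14, the AP-1 targets 3 to 10 and 6 to 8, and the AU-rich element and deadenylation genes 0 to 5 and 5 to 14. The lowest counts of higher genes came from the TPM scales. The block changed no other call among the 10 genes. Upper-quartile factors moved the median of all genes by 0.12 on the log2 scale, and the TPM scales by -0.14 and -0.15. Of all tested genes, 52.3% were called in the main fit, 54.1% with GC-corrected offsets and 69.9% with the replicate block. Of all tested transcripts, 19.7% were called in the main fit and 27.0% with the block. For the other alternatives these shares were not counted, so the changed counts of calls cannot be called particular to the listed genes. The causes were not tested.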
